A study of Mus musculus with 46 samples.

Results

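The 10 tumors described here came from WT mice that had an intact Pdcd1 gene and received no PD-1 blockade. Cd8a, which encodes the alpha chain of the CD8 coreceptor of cytotoxic T cells, differed several-fold among them, and the genes of interest are those whose level followed Cd8a from tumor to tumor. Members were chosen by their values in these same tumors. Of 11697 protein-coding genes whose mean was 1 FPKM or more, besides Cd8a itself, a gene was selected where its Spearman rho with Cd8a was at least 0.7 over all 10 tumors and again over the 9 tumors without replicate 3, which had the highest Cd8a, or at most -0.7 over both. This gave 468 genes that rose with Cd8a (4.0% of the genes kept) and 122 that fell (1.04%).

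RNA was measured in 46 samples of MC-38, a line from a mouse colon carcinoma, as cultured cells or as tumors grown under the skin of mice. The 10 WT tumors were littermate controls of the PD-1cKO mice and had received tamoxifen at 40 mg/kg on 5 days like them, so both groups share that treatment. The labels place them at day 28, whereas the methods give another day of tumor collection. Other tumors serve only for comparison below. They are 10 PD-1cKO tumors, from Rosa26-creERT2 mice with a floxed Pdcd1 gene in which tamoxifen deletes the gene in every cell type that carries the Cre, and 23 tumors of an antibody experiment in WT mice without tamoxifen. The latter are 3 tumors at baseline, 5 given isotype antibody and 5 given PD-1 antibody at 5 mg/kg after 1 dose, and again 5 and 5 after 2 doses. Pdcd1 itself was not at 0 in the PD-1cKO tumors, where its rescaled FPKM ran from 5.53 to 25.7 with a median of 8.80, beside 1.69 to 7.08 in the WT tumors. The floxed part is 2 of the gene's exons, and a value over the whole gene does not show whether they were lost. By flow cytometry the paper reports that only a small share of CD4 and CD8 T cells in PD-1cKO tumors still carried PD-1 protein after tamoxifen.

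CD8 T cells recognise peptides on MHC class I and kill through perforin and granzymes, and they release interferon gamma (IFNγ), which in turn raises antigen presentation and chemokine genes in tumor cells and macrophages. In untreated MC-38 tumors such cells are known to be present, and many carry PD-1, the inhibitory receptor encoded by Pdcd1. Bulk tumor RNA mixes all of these cells with tumor cells, fibroblasts and vessels. In such samples fewer cells of a type and less RNA per cell cannot be told apart.

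Levels are FPKM rescaled so that the protein-coding genes of each sample had the same sum. Protein-coding genes held 35.1% to 55.5% of the deposited FPKM of a WT tumor and short noncoding RNAs 33.1% to 54.8%, and neither share followed Cd8a (rho -0.07 and -0.24 over 10 tumors). Mitochondrial genes held 0.644% to 1.61% of the protein-coding sum. Log2 values of pairs of WT tumors correlated with a median r of 0.97 over the genes kept (lowest 0.94). Replicate 9 stood farthest out on the first principal component, which held 35.6% of the variance (weight -0.72, beside 0.44 for replicate 3), and this component followed Cd8a with rho 0.76. In an alternative chosen after the data were seen, replicates 3 and 9 were both left out of the second set of tumors. Then 288 genes rose and 67 fell with Cd8a, of which 273 and 59 were among the 468 and 122. The limit over all 10 tumors was kept, so both selections share that condition and overlap in part for that reason. FPKM holds no depth, so no counting error can be given. The precision is the spread among these tumors.

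Cd8a (ENSMUSG00000053977, GRCm38 chromosome 6, 71373427 to 71379173) averaged 3.87 ± 2.86 FPKM (SD, n = 10). Its values were 3.15, 3.99, 11.8, 2.24, 3.90, 2.22, 3.40, 2.85, 1.91 and 3.28 FPKM in replicates 1 to 10. Replicate 3 was thus far above the rest, and the other 9 tumors spanned little more than a doubling. In the PD-1cKO tumors Cd8a ran from 6.48 to 32.2 FPKM with a median of 14.3, so that replicate 3 was the only WT tumor inside their range and lay above 3 of those 10.

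Of the genes that define a T cell, some were in nearly the order of Cd8a and others were not. Cd3g, a chain of the receptor complex, had rho 0.82 with Cd8a over 10 tumors and 0.75 without replicate 3, and Trbc2, the constant part of the beta chain, 0.68 and 0.57. Cd8b1, the second chain of the CD8 coreceptor, had 0.73 and 0.63. For Cd3e, a signalling chain of the T-cell receptor, the values were 0.54 and 0.37. For Trac, the constant part of the receptor's alpha chain, they were 0.37 and 0.13, and for Ifng 0.44 and 0.23. Cd3e lay at 5.88 FPKM in replicate 3 and between 0.714 and 2.05 in the other 9 tumors, and Ifng at 3.46 against 0.520 to 1.26. Both therefore set replicate 3 apart, and neither ordered the remaining tumors as Cd8a did. Among the 9, Cd3d and Trac ran in opposite order with rho -0.87. Cd3e, Cd3d, Cd8b1, Trac and Ifng were at or below 2.05 FPKM outside replicate 3, and at such low levels the depth, unknown here, limits the order. Cd8a itself was only 1.91 to 3.99 FPKM in those 9 tumors, with near-ties such as 2.22 and 2.24. The order behind every rho given here has that limit too. Among the members, Ikzf3 (0.516 to 2.22 FPKM outside replicate 3) and Zap70 (1.07 to 2.48) were about as low.

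Choosing genes by another T-cell gene gave mostly other genes. With Cd3e in place of Cd8a, 1110 of 11697 genes rose and 193 fell, and 33 of the rising ones were among the 468 (7.05% of those). That is 2.97% of the 1110, beside 4.0% of all genes kept, and so no more often than the background. With Cd8b1, 62 of 11697 genes rose, and 21 of them were shared (4.49% of the 468). That is 33.9% of the 62, beside the same 4.0%, and so more often than the background. The genes below are hence described as genes that followed Cd8a, and not as a measure of the number of T cells.

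**Figure D1:**
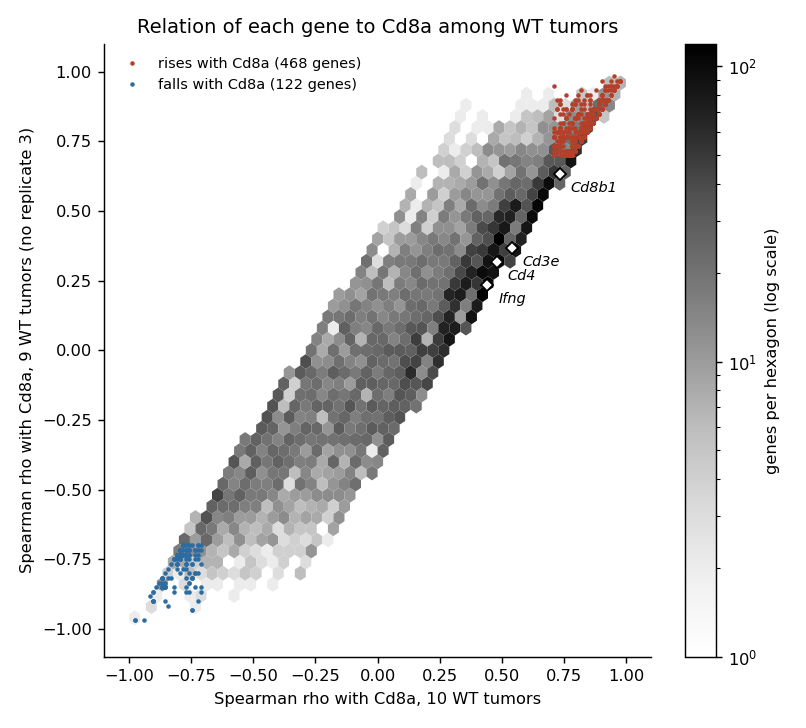
Each gene kept, by its Spearman rho with Cd8a over the 10 WT tumors (x axis) and over the 9 tumors without replicate 3 (y axis), shaded by the number of genes. The 468 genes selected as rising (red) and the 122 as falling (blue) are at least 0.7 from 0 on both axes, while Cd3e, Cd8b1, Cd4 and Ifng (diamonds) lie nearer to 0 without replicate 3.

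Values just inside and outside the limit were close. Unc93b1, a chaperone of endosomal Toll-like receptors, was the last gene inside with rho 0.78 and 0.70, and App was the first outside with 0.70, rounded up from below the limit, and 0.85. On the other side Morf4l2 (-0.78 and -0.70) was inside and Rps3a1 (-0.70, again short of the limit, and -0.87) outside. Over all genes kept the median rho was 0.19 with all tumors and 0.13 without replicate 3, and 64.7% of genes had a positive rho, so the rising side was favoured before any list was looked at.

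The spread of the members was modest. Among the 9 tumors without replicate 3, the highest value of a rising gene was a median of 1.96 times its lowest, beside 1.64 over all genes kept and 1.51 for the falling genes. Replicate 3 was the highest tumor for 178 of the 468 rising genes (38.03%, against 19.1% of all genes kept), and replicate 9 the lowest for 305 (65.2%, against 32.3%). Replicate 9 was also the highest tumor for 84 of the 122 falling genes. These counts follow in part from the rule, since replicate 9 had the least Cd8a. With replicate 9 left out in place of replicate 3, 421 genes rose and 104 fell, of which 375 and 83 were among the members. Rising genes had longer transcripts than the genes kept as a whole (median of the longest coding transcript 3652 against 3140.5 bases, the falling genes 1886.5) and more GC (53.6% against 50.1%). Over 11672 genes the rho with Cd8a went with transcript length at a Spearman correlation of 0.34, and without replicate 3 with GC content at 0.23. These are values across genes that share libraries, and the part of length and GC in the selection was not tested.

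Among cytotoxic genes, Prf1 followed Cd8a most closely. It encodes perforin, the protein that forms pores in target cells (chromosome 10, 61297833 to 61304680), and had rho 0.96 with all tumors and 0.95 without replicate 3. Its FPKM ran from 1.45 in replicate 6 to 5.58 in replicate 5 among the 9 tumors, with a median of 2.88, and was 8.12 in replicate 3. The 3 tumors with the most Cd8a were also the 3 with the most Prf1. Of 16 cytotoxic effector genes kept out of a list of 19, 4 rose (Prf1, Gzmb, Gzmf and Nkg7) and the median rho was 0.44 and 0.42. Granzyme genes were not alike: Gzme had rho 0.10 and 0.38, and Gzmk, which was under the level kept, -0.13 and -0.55. The most abundant of them, the chemokine gene Ccl5, was not a member (rho 0.53 and 0.35): it was 41.1 FPKM in replicate 3 and 6.12 to 23.3 in the rest.

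Genes of inhibitory receptors had the highest median rho among the lists that were not written for these values, 0.81 with all tumors and 0.73 without replicate 3, over 8 genes kept of 11. Members were Pdcd1, Lag3, Ctla4 and Vsir. Pdcd1 had rho 0.84 and 0.78, and ran from 1.69 to 3.82 FPKM in the 9 tumors and to 7.08 in replicate 3. Lag3, which binds MHC class II, had rho 0.90 and 0.87, with 1.44 to 5.82 FPKM and 8.87 in replicate 3. Vsir encodes VISTA, an inhibitory protein of myeloid and T cells, and its highest value, 32.1 FPKM, was in replicate 5 and not in replicate 3 (26.8). Of the T-cell receptor and coreceptor genes, 3 of 13 rose, namely Cd3g, Cd6 and Zap70, the receptor's tyrosine kinase (rho 0.88 and 0.83). All 13 were highest in replicate 3. Cd3d had rho 0.25 and -0.03.

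Among T-cell transcription factors 2 of 10 rose, both of the Ikaros family. Ikzf3, which encodes Aiolos, had the closest relation (rho 0.98 and 0.97). It was lowest in replicate 9 at 0.516 FPKM, reached 2.22 in replicate 5 and was 3.64 in replicate 3. Il2rb, a chain of the IL-2 and IL-15 receptors, and Tnfrsf18 were the 2 members among 7 genes of CD4 and regulatory T cells. Klrd1, which encodes CD94 of NK cells and activated CD8 T cells, was the 1 member among 5 NK receptor genes. Foxp3 (at most 0.39 FPKM), Ncr1 (at most 0.69) and Xcr1 (at most 0.79) were under the level kept. Ms4a1 of B cells did not exceed 0.14 FPKM, and Cr2 of follicular dendritic cells 0.09. Of the B and plasma cell list only 2 genes were kept. Cd22 was a rising member (rho 0.87 and 0.85, 0.867 to 4.14 FPKM), and Jchain was not (0.10 and 0.37, 1.16 to 13.3 FPKM). No T-cell chemokine or chemokine receptor gene of the 9 kept was a member. Cxcr6, a receptor of resident T cells, had the highest rho of them, 0.73 and 0.63.

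**Figure D2:**
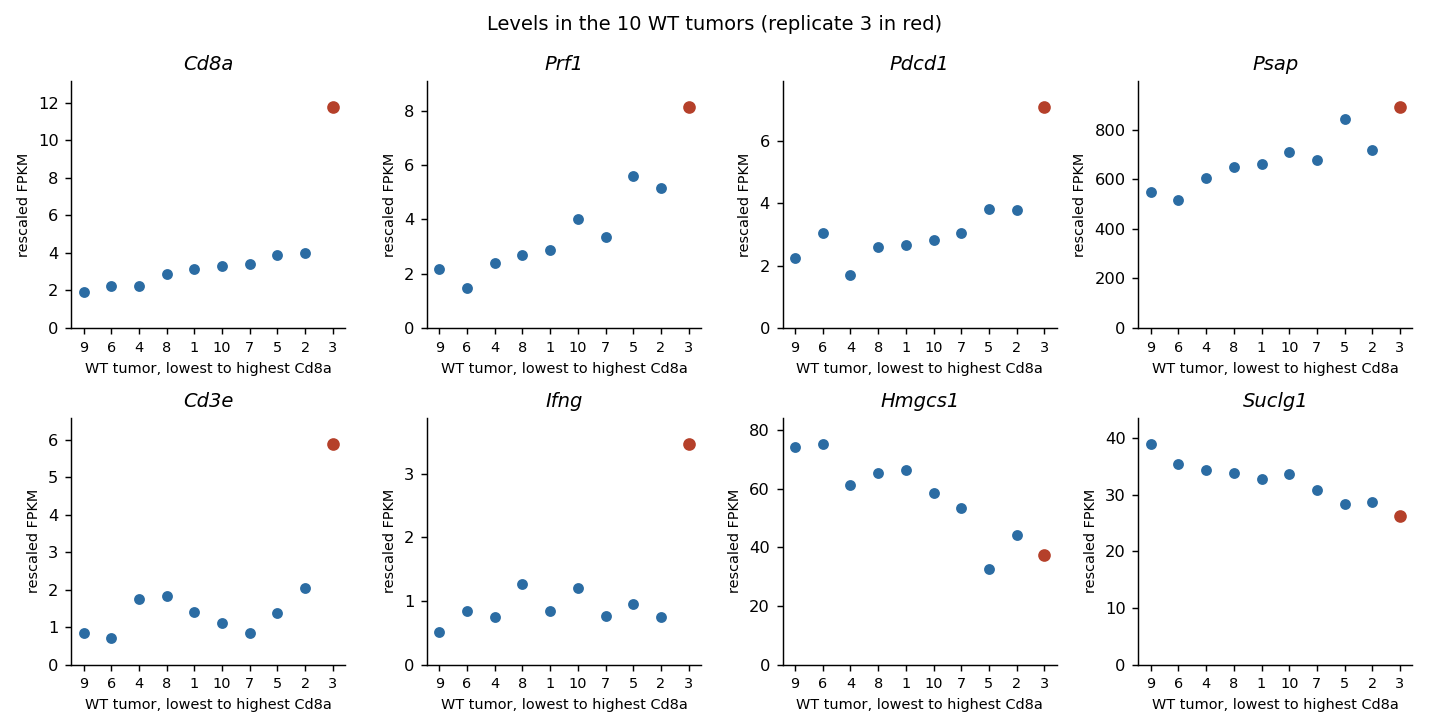
Rescaled FPKM of 8 genes (y axes from 0) in each of the 10 WT tumors, ordered on the x axis from the lowest to the highest Cd8a and numbered by replicate, with replicate 3 in red. Prf1, Pdcd1 and Psap climb along the Cd8a order, Hmgcs1 and Suclg1 descend, and Cd3e and Ifng stand out in replicate 3 alone, at 5.88 and 3.46.

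IFNγ response genes were split between replicate 3 and the rest. Of 24 such genes, 23 were highest in replicate 3, by a median of 0.85 on the log2 scale above the median of the other 9 tumors, yet only 4 were members, among them Nlrc5, the transactivator of MHC class I genes, Cd274, which encodes PD-L1, and Ido1. Their list had a median rho of 0.65, and 0.52 without replicate 3. Nlrc5 was 63.4 FPKM in replicate 3, 18.2 in replicate 9 and 33.1 to 53.4 in the others. Gbp2, the most abundant of the list, ran from 137 to 381 FPKM and 453 in replicate 3 with rho 0.56 and 0.40. Of 15 type I interferon-stimulated genes, 10 were highest in replicate 3 and 1, Ifi44, was a member.

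Antigen presentation genes followed Cd8a in part. The class I members were Tap1 and Tap2, which encode the peptide transporter, and Psmb8, an immunoproteasome subunit, 3 of 15 genes. Tap2 (rho 0.93 and 0.90) varied little, between 51.8 and 59.5 FPKM in 8 tumors, 63.8 in replicate 3 and 34.5 in replicate 9. H2-K1, the most abundant class I gene, had rho 0.66 and 0.77 and missed the limit, and 8.79% of its 50-base stretches also occur in other genes. The class II members were H2-Aa, H2-Ab1 and H2-Eb1, 3 of 9 genes. H2-Aa was between 514 and 686 FPKM in the 9 tumors and 731 in replicate 3 (rho 0.87 and 0.82). Batf3, a transcription factor of cross-presenting dendritic cells, was the 1 member among 8 genes of those cells.

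Genes of macrophages and of the stroma were members too. Of 18 macrophage and monocyte genes 6 rose, namely Csf1r, C1qc, Cd68, Trem2, Cd163 and Nos2. Csf1r, the receptor for the growth factor CSF-1, had rho 0.81 with all tumors and 0.90 without replicate 3. It was 43.5 to 107 FPKM in the 9 tumors and 73.2 in replicate 3, which did not stand out. Adgre1, which encodes F4/80, had rho 0.16 and 0.37. Of 16 fibroblast and matrix genes 5 rose (Dcn, Col1a2, Col3a1, Col5a1 and Acta2), and Dcn, which encodes decorin, ran from 50.1 to 140 FPKM with 108 in replicate 3. The summed level of the fibroblast list was 2481 to 4319 FPKM in the 9 tumors and 3783 in replicate 3 (rho 0.77 and 0.80), and that of the macrophage list 1638 to 3044 and 3116 (rho 0.78 and 0.70). No gene of the endothelial, neutrophil, cell cycle, glycolysis, skeletal muscle or adipose lists was a member. Acta1 and Ckm, which encode proteins of skeletal muscle, varied widely, from 0.07 to 119 and 0.26 to 52.9 FPKM, with rho 0.49 and 0.40 for Acta1 and 0.55 and 0.57 for Ckm. The part of these other cell types in the relation to Cd8a was not tested.

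**Figure D3:**
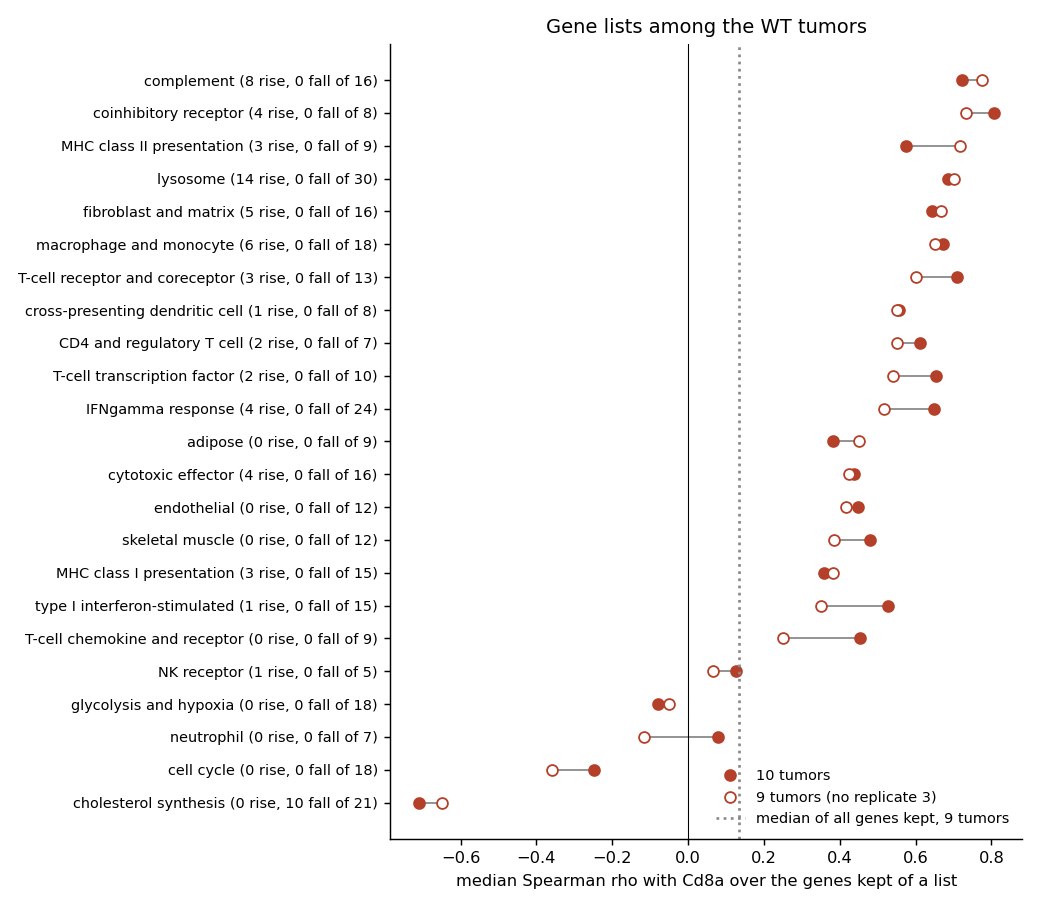
Median Spearman rho with Cd8a (x axis) over the genes kept of each list with at least 5 of them, for all 10 WT tumors (filled) and without replicate 3 (open), with the numbers of members that rise and fall. The coinhibitory receptor and complement lists lie highest over all tumors and cholesterol synthesis lowest, at -0.71 and -0.65. The complement, lysosome and cholesterol lists were written after the values were seen.

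The 10 rising genes with the closest relation were Adamts2, Ace, Ikzf3, Scyl3, Tbc1d17, Psap, Arhgef18, Prf1, Slc26a11 and Ctsa, with rho from 0.94 to 0.98 in both sets of tumors (C4b and Fndc1 tied with Ctsa, which is the most abundant of them). Only Ikzf3 and Prf1 are genes of lymphocytes. Adamts2 encodes the protease that trims procollagen, and was 3.94 to 9.87 FPKM in the 9 tumors and 11.6 in replicate 3. Ace, angiotensin-converting enzyme, was 1.502 to 5.11 FPKM and 7.36 in replicate 3. Psap encodes prosaposin, the precursor of lysosomal activators of sphingolipid breakdown (chromosome 10, 60277627 to 60302597), and is abundant. It ran from 518 FPKM in replicate 6 to 842 in replicate 5, with a median of 662, and was 891 in replicate 3. Ctsa, which encodes the lysosomal protective protein cathepsin A, was 95.3 to 135 FPKM, and replicate 3 (121) was inside that range. Scyl3, Tbc1d17 and Arhgef18 likewise had replicate 3 inside the range of the others and moved little, Tbc1d17 from 7.86 to 11.95 FPKM.

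Because Psap and Ctsa stood at the top, lists of lysosomal, complement and cholesterol synthesis genes were written after these values were seen, and support nothing by themselves. Of 30 lysosomal genes 14 rose, among them Ctsb, Ctsd, Hexa, Npc1 and Tpp1, with a median rho of 0.68 and 0.70. Of 16 complement genes 8 rose, among them C1qc, C2, C3 and C4b. C4b had rho 0.94 and 0.95 and ran from 12.6 to 38.4 FPKM, with 35.2 in replicate 3, but 35.2% of its 50-base stretches occur in another gene, so that its level is uncertain. Of all 468 rising genes, 428 were on none of the lists that were not written for them, as were 11445 of the 11697 genes kept. The other 40 rising genes were on such a list, beside 252 of all genes kept, so rising genes were listed more often than the background.

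The falling genes were led by metabolic enzymes. The 10 closest were Prdx2, Suclg1, Mtap, Hmgcs1, Sqle, Cdkn2b, Mvd, Hsd17b12, Rdh11 and Pfn2, with rho between -0.98 and -0.85. Suclg1 encodes a subunit of succinate-CoA ligase of the citric acid cycle (chromosome 6, 73248382 to 73276911). It was 38.9 FPKM in replicate 9, 28.3 in replicate 5 and 26.3 in replicate 3, its lowest value. Prdx2, a peroxiredoxin that removes hydrogen peroxide, was 231 FPKM in replicate 9, 153 to 181 in the others of the 9 and 148 in replicate 3. Mtap and Cdkn2b lie close together on mouse chromosome 4, and Mtap, an enzyme of methionine salvage, ran from 37.2 to 62.8 FPKM with 44.2 in replicate 3.

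Cholesterol synthesis was the one list with falling members. All 21 of its genes had a negative rho in both sets of tumors, 10 were members, and the summed level of the list had rho -0.90 both with and without replicate 3. That sum was 429 to 1017 FPKM in the 9 tumors, with a median of 720, and 478 in replicate 3. Hmgcs1 encodes HMG-CoA synthase, an early step of the pathway (chromosome 13, 119690379 to 119708260), and fell from 75.1 FPKM in replicate 6 to 32.6 in replicate 5, with 37.4 in replicate 3. Sqle, squalene epoxidase, fell from 45.2 in replicate 9 to 19.3 in replicate 5, with 24.0 in replicate 3, and Mvd from 20.4 in replicate 6 to 8.93 in replicate 5, with 8.83 in replicate 3. Fdps fell from 354 to 113 FPKM, but 86.4% of its 50-base stretches also occur in other genes. Dhcr7, near the end of the pathway, had the weakest relation (rho -0.25 in both sets).

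Promoters are shown for one gene of each direction because their members moved together. From the RefSeq promoters of GRCm38.p6, which cover 250 bases before and 50 after the start site, 353 of the 468 rising and 99 of the 122 falling genes matched by symbol. The sterol response element was searched as TCACNCCAC on both strands, and the IFNγ-activated site as TTCNNNGAA, which reads the same on both strands. They share no bases in the sequences printed. The element bound by sterol-regulated factors is in capitals in Hmgcs1, on the plus strand at chr13:119690101-119690400, and the IFNγ-activated site in Psmb8, on the plus strand at chr17:34197945-34198244:

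Hmgcs1: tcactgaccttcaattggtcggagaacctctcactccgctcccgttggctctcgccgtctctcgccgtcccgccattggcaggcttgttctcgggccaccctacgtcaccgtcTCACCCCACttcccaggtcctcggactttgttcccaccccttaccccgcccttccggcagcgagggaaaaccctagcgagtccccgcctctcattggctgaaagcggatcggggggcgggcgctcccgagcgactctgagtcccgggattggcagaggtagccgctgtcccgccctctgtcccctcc

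Psmb8: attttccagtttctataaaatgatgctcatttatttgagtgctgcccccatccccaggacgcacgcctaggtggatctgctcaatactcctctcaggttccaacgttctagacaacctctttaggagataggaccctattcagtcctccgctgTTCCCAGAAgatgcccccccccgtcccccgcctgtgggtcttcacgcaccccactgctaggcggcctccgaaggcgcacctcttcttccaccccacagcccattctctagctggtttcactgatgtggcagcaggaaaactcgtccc

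The sterol element begins 137 bases before the Hmgcs1 start site. It was found in 1.44% of the 27025 genes with a promoter, in 1.30% of the 9219 genes kept, in 1 of the 15 cholesterol genes matched, in 8 of the 353 rising genes (2.27%) and in 2 of the 99 falling genes (2.02%). The IFNγ-activated site begins 97 bases before the Psmb8 start site and was found in 9.55% of all genes with a promoter, in 8.34% of the genes kept, in 45 of the 353 rising genes (12.7%) and in 2 of the 99 falling genes (2.02%). A match of letters is a description and does not show that a factor binds there.

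Replicate 3 was the highest tumor for 19.1% of all genes kept and the lowest for 6.46%. The genes in which it stood farthest apart did not all follow Cd8a elsewhere. Besides Cd8a, the 10 genes with the largest ratio of replicate 3 to the highest of the other 9 tumors were Krt42, Klrd1, Acod1, Ly6i, Cd3e, Cxcr6, Cd8b1, Gm43302, Mcpt1 and Ifng. Klrd1 was 7.90 FPKM in replicate 3 and 0.886 to 2.65 in the others. Acod1, which makes itaconate in activated macrophages, was 8.43 against 1.04 to 2.85, and its rho with Cd8a was 0.13 with all tumors and -0.20 without replicate 3. Mcpt1, a mast cell protease, was 47.1 against 2.33 to 17.9. Krt42, a keratin, was 7.04 against 0.535 to 1.97 and had rho 0.95 and 0.93. Gm43302 has all of its 50-base stretches in other genes, so its level cannot be assigned to it. At the other end Rpusd3 was 2.52 FPKM in replicate 3 and 4.10 to 5.38 in the others, and Mtus2 was 0.176 against 0.677 to 2.06. Nanp, Pramef12 and Dynlt1a complete the 5 lowest, and most of the stretches of Nanp (56.1%) and Dynlt1a (59.3%) are shared with other genes.

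Replicate 3 was inside the range of the PD-1cKO tumors for most of these genes. Its Ifng was higher than in 7 of the 10 PD-1cKO tumors, its Acod1 than in 7 and its Klrd1 than in 4. Krt42 was higher in replicate 3 than in every PD-1cKO tumor, where it ran from 0.081 to 5.43 FPKM.

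**Figure D4:**
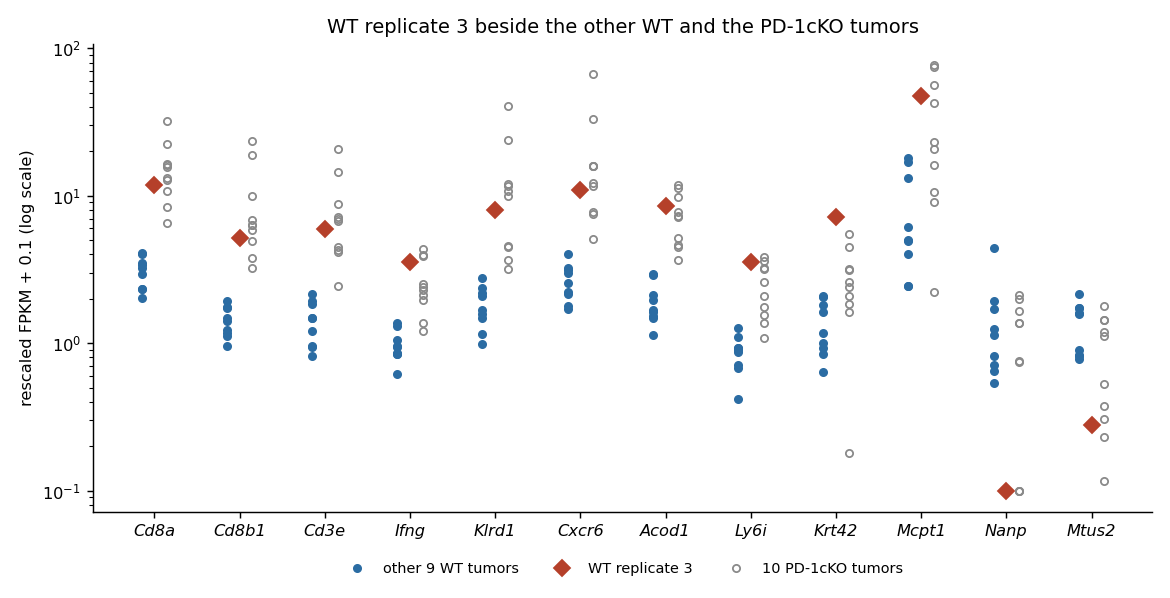
Rescaled FPKM with 0.1 added (y axis, log scale) of 12 genes in the 9 other WT tumors (blue), WT replicate 3 (red) and the 10 PD-1cKO tumors (open). Replicate 3 lies above the other WT tumors and among the PD-1cKO tumors for Cd8a, Cd8b1, Cd3e, Ifng and Klrd1, and above all PD-1cKO tumors for Krt42, at 7.04.

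The question of whether the same genes go with Cd8a elsewhere was put to tumors that the selection did not use. The first were the 10 PD-1cKO tumors, by a 2-sided rank test that is exact over all orders of the tumors, with Benjamini-Hochberg adjustment over 11536 genes and calls at an adjusted p under 0.05. Of the 467 rising genes that could be tested, 45 were called higher with Cd8a (9.64%, beside 3.53% of all genes tested) and 7 were called lower (2.59% of all genes). Their median rho was 0.55, beside 0.006 over all genes, and 395 had the positive sign (84.6%, beside 50.1% of all genes). Of 121 falling genes 2 were called lower, Mrps30 and Coprs. That is 1.65%, beside 2.59% of all genes, and so no more often than the background. The falling genes had a median rho of -0.45, and 101 had the negative sign (83.5%, beside 49.9% of all genes). Members called higher included Pdcd1 (rho 0.92, adjusted p = 0.024 in this exact test), Ikzf3 (0.85, 0.047) and Klrd1 (0.89, 0.033), and Dcn (0.90, 0.028). Prf1 had rho 0.68 (adjusted p = 0.16 in the same exact test) and Psap 0.56 (0.27), so neither was called.

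That count rested on single tumors. Without PD-1cKO replicate 4, or without replicate 8, no rising gene was called in the exact rank test, higher or lower, and 1 gene of all those tested was called in each direction. The counts called higher were 14, 5, 22, 29, 96 and 5 without replicates 1, 2, 6, 7, 9 and 10. Without replicate 2 this was 1.07% of the rising genes beside 1.10% of all genes, and without replicate 10 it was 1.07% beside 0.90%, so the members were then called about as often as the background. Without replicate 9 it was 20.6% beside 4.54%. A limma slope on Cd8a over the same tumors called 175 rising genes higher (9.99% of all genes), 18 rising genes lower and 26 falling genes lower (9.83% of all genes). The sign rested less on single tumors. With 1 tumor left out, 378 to 405 of the 467 rising genes and 98 to 106 of the 121 falling genes had the sign they had among WT tumors. Within the 7 PD-1cKO tumors of one run of sample identifiers, 364 of 467 rising genes and 100 of 121 falling genes had that sign, with median rho 0.64 and -0.46, beside -0.21 over all genes.

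Class I antigen processing had the other direction in the PD-1cKO tumors. Tap1 (rho -0.87, adjusted p = 0.043 in the exact rank test) and Psmb8 (-0.89, 0.033), which rose with Cd8a among WT tumors, were both called lower. These calls also rested on single tumors: 7 rising genes were called lower with all 10, 0 without PD-1cKO replicate 4 or 8 and 1 without replicate 1, 2 or 10. The 15 genes of the class I list had a median rho of -0.68 there against 0.36 among WT tumors, and the 24 IFNγ response genes -0.28 against 0.65. No IFNγ response gene was called in the PD-1cKO tumors. The difference between the groups of tumors was not tested, since the WT values chose the members.

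Within the 5 groups of the antibody experiment, a limma slope of each gene on Cd8a was fitted with the group as a factor. Of 442 rising genes tested 69 were called higher with Cd8a at an adjusted p under 0.05 (15.6%, beside 3.12% of 11342 genes), and no falling gene of 121 was called lower (0.0176% of all genes, and 0 of the 121 at an unadjusted p under 0.05). The median slope was 0.24 per doubling of Cd8a for rising genes, 0.12 over all genes and 0.08 for falling genes. In this fit 94.4% of all genes had a positive slope. One isotype control tumor after 1 dose, replicate 1, had 71.0% of its protein-coding sum in mitochondrial genes, beside at most 8.27% in the others. Without it the median slopes were 0.08, -0.01 and -0.03, and 88 rising genes were called higher (19.9%, beside 4.22% of all genes). A negative slope was found for 96 of the 121 falling genes (79.3%) and for 57.9% of all genes. Rescaling over nuclear genes gave 49 called of 435 rising genes (11.3%, beside 2.76% of all genes). The slopes of single genes that follow come from the first fit, which includes the isotype control tumor with 71.0% in mitochondrial genes. Median slopes were higher with that tumor, and the slopes of single genes are not given without it. In that fit Pdcd1 had the steepest slope among the members named here (0.98 ± 0.10 SE, limma adjusted p = 7.0e-07), followed by Cd3g (0.93 ± 0.09, 7.0e-07), Il2rb (0.90 ± 0.12, 6.2e-05), Prf1 (0.88 ± 0.17, 0.0035), Lag3 (0.84 ± 0.18, 0.0087) and Zap70 (0.83 ± 0.13, 0.00026). H2-Aa had a slope of 0.64 ± 0.08 (3.7e-05). Adamts2, Scyl3, Tbc1d17, Arhgef18, Slc26a11 and Ctsa had slopes from 0.13 to 0.28 and were not called. Psap had 0.38 ± 0.13 (limma adjusted p = 0.12).

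The 13 rising genes called higher with Cd8a in both the PD-1cKO tumors and the antibody groups were Ablim1, Cd3g, Gimap3, Gimap7, Ikzf3, Il18bp, Klrd1, Nkg7, Pdcd1, Sh2d2a, Slamf7, Slit3 and Tbc1d10c. The group holds a chain of the T-cell receptor (Cd3g), GTPases of lymphocyte survival (Gimap3 and Gimap7), a granule protein (Nkg7), a decoy of the cytokine IL-18 (Il18bp) and an adaptor of T-cell signalling (Sh2d2a). All but Slit3, an axon guidance ligand, were also called higher after PD-1 antibody, as given below. The share of all genes called in both tests is not given, so these 13 have no background to be compared with. Without PD-1cKO replicate 4, or without replicate 8, no rising gene was called in the PD-1cKO tumors, so none would remain in both. The antibody calls come from the fit that includes the isotype control tumor rich in mitochondrial genes.

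PD-1 antibody against isotype control after 2 doses was tested with limma, with calls at an adjusted p below 0.01 and 2-fold or more. Of 459 rising genes tested 157 were called higher (34.2%, beside 5.64% of 11420 genes), with a median log2 fold change of 0.87, beside -0.01 over all genes. Of 121 falling genes 4 were called lower (0.14% of all genes were), with a median of -0.28, and 113 had a negative change. Cd8a itself averaged 2.35 FPKM under isotype antibody and 22.0 FPKM under PD-1 antibody. Prf1 went from 1.07 to 13.5 FPKM (log2 fold change 3.58 ± 0.34 SE, limma adjusted p = 0.00059), Pdcd1 from 1.58 to 11.0 (2.68 ± 0.35, 0.00079), Lag3 from 4.13 to 24.3 (2.49 ± 0.28, 0.00066) and Psap from 484 to 1245 (1.32 ± 0.18, 0.00086). H2-Aa rose by 1.88 ± 0.23 and Vsir by 1.63 ± 0.24 on the log2 scale. Scyl3, Tbc1d17 and Arhgef18, close to Cd8a among WT tumors, differed by 0.29, 0.22 and 0.08 and were not called.

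The 4 falling genes called lower after PD-1 antibody were all of cholesterol synthesis: Msmo1 (log2 fold change -1.25), Fdps (-1.12), Sqle (-1.04) and Cyp51 (-1.01). In the limma fit 6 of the 21 cholesterol genes were called lower, beside 0.14% of all genes tested, and the median change of the 21 was -0.69. Hmgcs1 went from 75.1 to 39.8 FPKM (-0.94 ± 0.18, limma adjusted p = 0.0036), short of 2-fold. In the PD-1cKO tumors Hmgcs1 ran from 10.51 to 33.2 FPKM, and all 10 were below the lowest but one of the WT tumors. Of the lysosomal genes 8 of 30 were called higher after antibody and of the complement genes 12 of 16, beside 5.64% of all genes tested. These lists and the cholesterol list were written after values were seen. Of the fibroblast genes 2 of 16 were called higher, and Col3a1 (log2 fold change 0.34 ± 0.27, limma adjusted p = 0.39) and Dcn (0.78 ± 0.25, 0.043) were not among them.

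The PD-1cKO tumors were also, as a group, on the high side of the WT tumors for the rising genes. The PD-1cKO median was above the WT median for 423 of 468 rising genes (90.4%), for 17 of 122 falling genes (13.9%) and for 42.8% of all genes kept. Genotype and the runs of consecutive sample identifiers were nearly confounded. One run held 7 PD-1cKO tumors and no WT tumor, one held 1 PD-1cKO and 9 WT tumors, and one held 2 and 1. Within the latter runs the PD-1cKO value or median was above that of WT for 407 and 404 of the 468 rising genes, for 18 and 39 of the 122 falling genes and for 45.2% and 50.7% of all genes kept. The single PD-1cKO tumor beside the 9 WT tumors was replicate 8, which had the most Cd8a of the PD-1cKO tumors (32.2 FPKM). Genotype and Cd8a level cannot be told apart there. For 70 rising genes every PD-1cKO tumor was above every WT tumor (1.36% of all genes kept), among them Prf1 (8.95 to 26.1 against 1.45 to 8.12 FPKM), Lag3, Zap70, H2-Aa, C1qc and Psap (1059 to 5615 against 518 to 891). These counts are descriptions, since the WT tumors chose the genes.

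**Figure D5:**
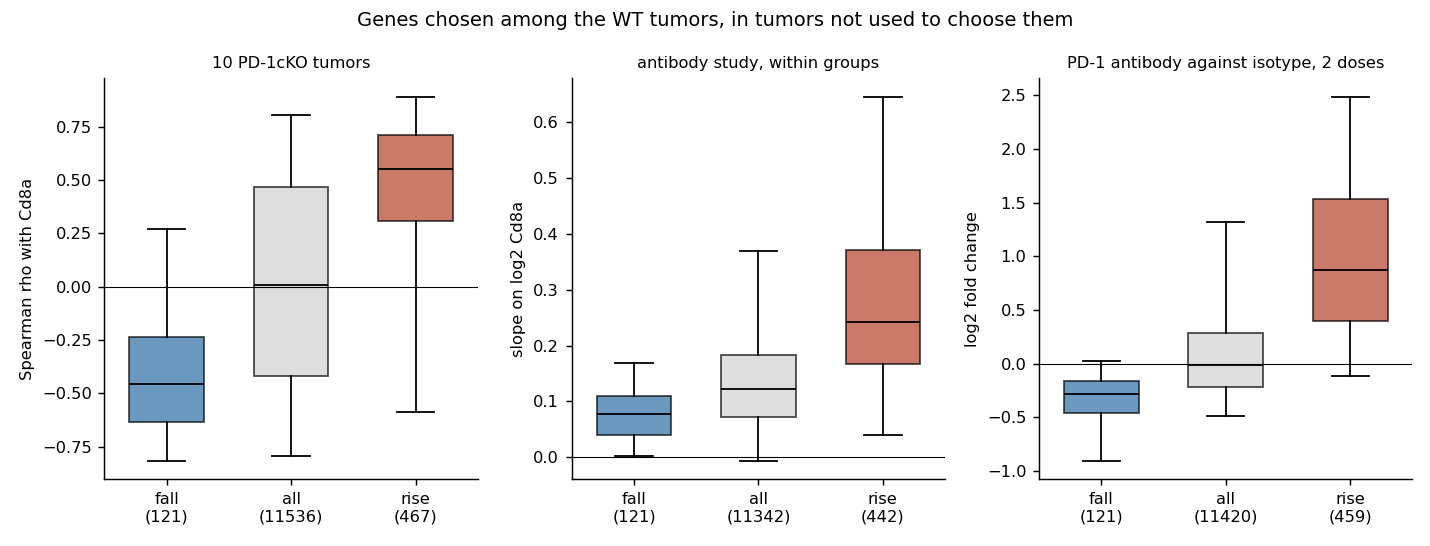
Spearman rho with Cd8a in the 10 PD-1cKO tumors, slope on log2 Cd8a within the 5 antibody groups and log2 fold change of PD-1 antibody over isotype control after 2 doses (y axes), for the falling genes, all genes tested and the rising genes. Boxes are quartiles with the median, and whiskers the 5th and 95th percentiles; the median of the rising genes lies above that of all genes in each panel, at 0.55, 0.24 and 0.87.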

How the data were processed

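RNA of bulk MC-38 tumors was sequenced with a stranded total RNA kit as paired reads. The authors aligned them to mouse build B38 in Omicsoft Array Studio and deposited FPKM values, which scale fragments by gene length and library size, for 48795 Ensembl genes; the table holds only FPKM, with no counts and no depth, so precision is the spread between tumors. GENCODE M21 (GRCm38) named 99.3% of the identifiers. Nothing says how replicate tumors were housed or processed beyond their labels, and p-values measure the spread between these samples.

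FPKM were rescaled to one sum over protein-coding genes, and log2(FPKM + 0.1) was used; fold changes are on that scale and understate the change of low genes. Genes were kept at a mean of 1 FPKM or more. In the PD-1cKO tumors the rank test was exact over all orders (5 genes with ties by permutation). Slopes within groups and the antibody contrast used limma 3.58.1 in R 4.3.3 (eBayes with trend, Benjamini-Hochberg over all genes tested). The relation to Cd8a among the WT tumors had no test, and single WT tumors far from the rest were marked by Dixon's criterion. The code was tested on simulated data.

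The members and gene lists were chosen with earlier results of these data known. Named genes are Cd8a and Ifng, the 10 closest genes in each direction (by the smaller absolute rho of both sets of tumors, ties by mean FPKM), of each list the highest and lowest rho and the most abundant gene, the 10 genes highest and 5 lowest in replicate 3, and genes that define a cell type. Csf1r, Gzmb, Tap1, Psmb8 and other members given outside this rule were named after their values were seen. The share of 50-base stretches of the longest coding transcript found in another gene marks uncertain levels. The replicate numbers of the antibody groups do not pair tumors. Software was pandas 2.3.3, numpy 2.4.6 and matplotlib 3.10.9 under Python 3.11.15. Alternatives were another pseudocount, filter, scaling, limit, gene followed, test or block, and leaving out each tumor.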

Additional observations from a re-analysis of the deposited data

Results flagged for a closer look

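Among the 129 genes and list sums checked over the 10 WT tumors, 28 had a highest or lowest tumor whose gap to the next, divided by the whole range on the log2 scale, exceeded Dixon's 95% critical value. Chance flags about 1 in 20 such groups, and the genes share the same tumors. The genes checked include Cd8a and the 10 genes highest and 5 lowest in replicate 3, so the number in which that tumor stands apart, 15 of the 28, follows largely from how they were chosen. Replicate 3 was the highest for Gm43302 (0.688), Cd8a (0.60), Cd8b1 (0.584), Ifng (0.549), Cxcr6 (0.539), Acod1 (0.528), Cd3d (0.519), Cd3e (0.512), Klrd1 (0.511), Krt42 (0.511) and Ly6i (0.485), and for the sums of the T-cell receptor list (0.479) and the T-cell chemokine list (0.477). It was the lowest for Rpusd3 (0.64) and Mtus2 (0.503).

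In 8 of the 28 it was replicate 9, the tumor with the least Cd8a. Replicate 9 was the lowest for Tap2 (0.662), Arhgef18 (0.615), Jchain (0.586), Nlrc5 (0.48) and the sum of the B and plasma cell list (0.479), and the highest for Cd14 (0.591), Prdx2 (0.548) and Ldha (0.503). Replicate 8 was the highest for the sum of the adipose list (0.718), for Scd1 (0.666) and for Fabp4 (0.527), and the lowest for Oas1a (0.498). Replicate 6 was the lowest for Gzme (0.525).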

How the results depend on the processing

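The numbers of genes chosen depend on the scaling, and so does which genes are chosen. Among the WT tumors 300 genes rose with the values as deposited and 294 (with 186 falling) under median-of-ratios scaling; Pearson r gave 254 and 45, a limit of 0.8 gave 181 and 29, and of 0.6 gave 977 and 327. Cd3e in place of Cd8a gave 1110 and 193, and Cd8b1 gave 62 rising. Leaving out another tumor in place of replicate 3 gave 421 to 685 rising and 104 to 184 falling genes, and leaving out replicates 3 and 9 (added after seeing the data) 288 and 67. Each alternative chose its members anew. With the values as deposited, median-of-ratios scaling or Pearson r, a large part of the rising and falling members described above was no longer chosen. Some genes that are not members were chosen instead. Membership of a single gene therefore holds for the scaling and the measure used here.

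Shares in brackets are of the members tested, beside those of all genes tested. In the PD-1cKO tumors rising members called higher were 14 with the values as deposited (4.68%, beside 2.17%) and 175 with the limma slope (37.5%, beside 9.99%). With 1 tumor left out they were 0 to 96 (at most 20.6%, beside 4.54%, without replicate 9). Falling members called lower were 26 with the limma slope (21.5%, beside 9.83%) and 18 under median-of-ratios scaling (9.94%, beside 3.24%). They were 4 with the filter at 0.5 FPKM (3.2%, beside 2.96%) or Cd3e in place of Cd8a (3.31%, beside 3.22%). They were 1 with no filter (0.62%, beside 1.53%) or the values as deposited (0.72%, beside 1.24%). With 1 tumor left out they were 0 to 6 (at most 4.96%, beside 2.91%, without replicate 3). Within the antibody groups rising members called higher were 45 as deposited (15.5%, beside 2.93%) and 44 under median-of-ratios scaling (15.9%, beside 3.31%). They were 129 with the PD-1cKO tumors as a further group (29.2%, beside 6.01%) and 36 to 100 with 1 tumor left out. They were 43 without baseline replicate 3 (9.73%, beside 1.44%) and 39 without isotype control replicate 4 after 1 dose (8.82%, beside 1.84%). They were 36 without PD-1 antibody replicate 5 after 2 doses (8.14%, beside 2.05%). Falling members called lower were 0 in each. The median slope of the falling members, positive at 0.08, was negative under median-of-ratios scaling (-0.01) and rescaling over nuclear genes (-0.04). For PD-1 antibody after 2 doses rising members called higher were 102 as deposited (34.3%, beside 5.38%) and 95 under median-of-ratios scaling (32.8%, beside 5.34%). With 1 tumor left out they were 99 to 213. They were 103 without PD-1 antibody replicate 2 (22.4%, beside 3.48%) and 99 without replicate 3 (21.6%, beside 3.34%). Falling members called lower were 19 with no fold limit (15.7%, beside 1.79%). With 1 tumor left out they were 1 to 6 (at most 4.96%, beside 0.298%, without PD-1 antibody replicate 5). The cause of these differences was not tested.

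With the replicate number as a block, 17 rising members were called within the antibody groups (3.85%, beside 0.626% of all genes). After 2 doses 94 were (20.5%, beside 3.06%). Tumors of the same number deviated together in 2 of 5 pairs after 2 doses (correlations of -0.28 to 0.15), and 1 of 5 correlated best with its own number, so the numbers are not taken as pairs. The median rho of the B and plasma cell list became -0.067 with no filter, and that of the skin keratinocyte list 0.073 with the filter at 0.5 FPKM and 0.17 with none.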
